A study of Bos taurus with 15 samples.

Results

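Cattle morulae with chromosomes from the father alone were compared with morulae with chromosomes from the mother alone, at equal ploidy. The comparison used 10 of the 15 RNA-seq libraries of the series, chosen by their labels: 5 androgenetic haploid and 5 parthenogenetic haploid libraries. All 31999 gene rows of the count table entered, and 16375 of them passed the expression filter and were tested. An androgenetic embryo is one whose egg chromosomes take no part in development, so that those of the sperm remain. A parthenogenetic embryo starts from an egg that was activated with no sperm. Both groups were Bos taurus embryos at the morula stage and carried a single chromosome set. The androgenetic libraries have the titles TII-1, TII-2, TII-4, TII-5 and TII-6, and the parthenogenetic ones CHX-1, CHX-2, CHX-3, CHX-5 and CHX-6. They are called androgenetic 1, 2, 4, 5 and 6 and parthenogenetic 1, 2, 3, 5 and 6 here, and values follow that order. A further group of 5 libraries, from diploid morulae made by ICSI (injection of a sperm into an egg), gave a level with both parental genomes. These 5 libraries also took part in the expression filter and in the fit, as a group of their own. The edgeR p-values thus also draw on the spread among ICSI libraries. The labels name no bull, breed, donor or batch and do not say how many embryos a library holds. P-values therefore measure the spread between libraries, which may be technical. Since the haploid groups were obtained by different procedures, the procedure and the parental genome cannot be told apart.

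Most mammalian genes can be read from either parental copy, but imprinted genes carry germ-line marks that keep the copy of a given parent silent. Genes read from the paternal copy are thus silent in embryos with maternal chromosomes alone, and maternally expressed genes in embryos with paternal chromosomes alone. The morula is the compact ball of cleaving cells that follows the start of embryonic transcription and precedes the split into trophectoderm and inner cell mass. The title of the series names WNT signalling and cell fate in androgenetic development.

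Totals lay between 21.6 and 28.5 M counts in androgenetic and between 25.1 and 29.0 M in parthenogenetic libraries. Rows with at least 1 count numbered 13564 to 18633 and 16154 to 18899, and the 20 highest rows took 12.8% to 18.2% and 10.7% to 17.2% of counts. None of these 3 measures passed an exact two-sided permutation test of 5 against 5 libraries (p = 0.167, 0.175 and 0.0714; 0.175 for each after Benjamini-Hochberg adjustment). Without parthenogenetic 6 the share of the 20 highest rows passed, at 4.77 points higher in androgenetic libraries (exact test, adjusted p = 0.0476). Androgenetic libraries were less alike: the median SD of log2 CPM over rows was 1.64 in them, 1.0 in parthenogenetic and 0.877 in ICSI libraries. Without androgenetic 6 it was 1.26, and without parthenogenetic 6 it was 0.716. Spearman correlations between libraries were 0.654 to 0.792 among androgenetic, 0.786 to 0.911 among parthenogenetic and 0.644 to 0.839 between the groups.

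In androgenetic morulae, the imprinted gene SNURF, 2 NKG2D ligand genes, the septin gene SEPT10 and 6 other genes with a symbol rose against parthenogenetic morulae. The GTPase gene ARL15, the exchanger gene SLC9C2, the threonyl-tRNA synthetase gene TARS, LETM2 and ZBED1 fell. The test was edgeR's quasi-likelihood test, fitted to all 15 libraries, with Benjamini-Hochberg adjustment over the 16375 rows. Rows below 0.05 are termed called. By that rule 150 rows (0.916%) were higher and 137 (0.837%) lower in androgenetic libraries, 287 (1.75%) in all, and 3056 rows (18.7%) had an unadjusted p under 0.05. Symbols were attached to 611 tested rows, and 10 of these rose and 5 fell. The other calls fell on 102 higher and 127 lower rows among 13802 Ensembl identifiers and on 38 higher and 5 lower among 1962 LOC rows without a symbol. Most transcripts thus carry no gene name here. Called rows had more counts than most: their median level over the haploid libraries was 22.1 CPM (counts scaled to library size, not to gene length) for higher and 26.1 CPM for lower rows, against 6.48 CPM for all tested rows. In bulk libraries fewer cells with a transcript and less of it per cell cannot be told apart. A fit of the haploid libraries alone, without the ICSI group, called 22 rows higher and 5 lower.

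**Figure D1:**
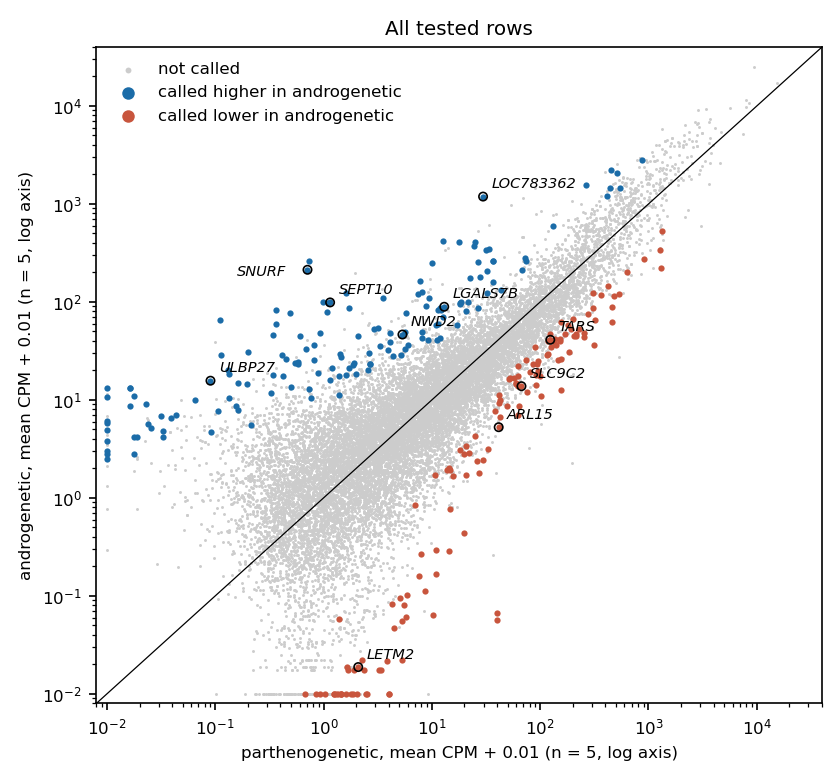
Mean TMM-scaled CPM plus 0.01 of each of the 16375 tested rows in parthenogenetic (x axis) and androgenetic (y axis) libraries, both on log axes, with called rows in colour and 10 rows named. The 150 rows called higher lie above the diagonal and the 137 called lower below it, over a wide range of levels.

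Groups that do not overlap were more frequent than calls. In 291 rows (1.78%) every androgenetic library stood above every parthenogenetic one, and in 454 rows (2.77%) every parthenogenetic library stood above every androgenetic one. Of the called rows, 104 of the 150 higher and 93 of the 137 lower had no overlap. The counts rested on single libraries: without androgenetic 4 they were 547 and 853, and without parthenogenetic 6 they were 638 and 1033. Without androgenetic 6 or parthenogenetic 2 the rows with androgenetic libraries above numbered 511 and 444. Without androgenetic 1 or parthenogenetic 2 those with parthenogenetic libraries above numbered 689 and 693.

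SNURF lies at an imprinted locus where mammals transcribe the paternal copy. It stood at 190.0, 174, 224, 161 and 316 CPM in the androgenetic libraries. In the parthenogenetic libraries it stood at 1.17, 1.54, 0.617, 0.125 and 0.0445 CPM. The groups did not come near each other, and ICSI libraries held 79.1 to 201 CPM, with 4 of 5 below the androgenetic range. Its log2 fold change was 8.24 ± 0.78 (SE, edgeR adjusted p = 2.30e-05), with means of 213 ± 62.3 and 0.701 ± 0.653 CPM (SD, n = 5 each). SNURF was the only gene with a symbol that was called in each of the 15 fits that left out a library, where its log2 fold change lay between 7.94 and 8.73. Its near absence from the libraries labelled parthenogenetic checks the labels by this gene alone. The other tested paternally expressed genes, MKRN3 and USP29, had counts in every parthenogenetic library. The maternally expressed MEG8 or MEG3 had counts in androgenetic 2 and 4. SNURF shares a transcript with SNRPN, so its row is uncertain as a single gene.

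The other imprinted genes with a symbol did not pass. Of the 3 tested paternally expressed genes, SNURF was higher and 0 were lower (0.916% and 0.837% of all rows). Their median log2 fold change was 0.89, against 0.00 over all tested rows, and turned to -0.90 in limma voom. It was 0.28 without androgenetic 5. MKRN3, a zinc finger gene of the same imprinted region, stood at 0, 0.739, 0.263, 11 and 11.1 CPM in androgenetic and at 3.91, 3.36, 1.53, 1.03 and 2.58 CPM in parthenogenetic libraries. Androgenetic 5 and 6 were above and the other 3 below all parthenogenetic libraries (log2 fold change 0.89 ± 1.31 SE, edgeR adjusted p = 0.765, 0.28 without androgenetic 5 and -1.37 in limma voom). USP29, a deubiquitinase gene that is imprinted in mice, had 0 to 4.08 CPM in androgenetic and 0.27 to 3.96 in parthenogenetic libraries (-0.06 ± 1.16, edgeR adjusted p = 0.985, and -0.68 without androgenetic 1). In both genes, then, transcripts were counted in every parthenogenetic library.

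Of the maternally expressed genes, the non-coding RNA genes MEG8 and MEG3 had rows under a symbol. MEG8 was at 0 in androgenetic 1, 2, 5 and 6 and at 2.93 CPM in androgenetic 4. It had 5.33, 0.116, 1.95, 2.53 and 1.47 CPM in the parthenogenetic libraries. Only androgenetic 4 overlapped them. MEG8 was the 1 tested member of its list, at -1.93 ± 1.69 (edgeR adjusted p = 0.590). Without androgenetic 4 its log2 fold change was -8.85 (edgeR adjusted p = 0.0353). MEG3 did not reach the expression filter: it had 1.17 and 0.0376 CPM in androgenetic 2 and 4, 5.72, 2.99 and 3.28 in parthenogenetic 1, 3 and 5, and 0 in the other haploid libraries and in ICSI.

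XIST, the RNA that coats an X chromosome to silence it, stood at 5.36, 5.54, 13.9, 22 and 22.7 CPM in androgenetic libraries. In parthenogenetic libraries it stood at 46.0, 26.4, 61.3, 33.5 and 90.7 CPM. The groups did not overlap, and yet the difference did not pass over all rows (-1.89 ± 0.68, edgeR adjusted p = 0.142). ICSI libraries ranged from 1.15 to 42.4 CPM, below the lowest androgenetic library and into the parthenogenetic range. XIST was the 1 tested gene of the X inactivation list. No Y-linked gene had a row under a symbol, so the sex chromosomes of the androgenetic libraries were not checked.

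ULBP27 and ULBP3 encode ligands of NKG2D, the activating receptor by which natural killer cells sense stressed cells. Both were higher in androgenetic than in parthenogenetic morulae, while both ICSI means were above the androgenetic means. Of 3 tested members of that list 2 were called higher and 0 lower (0.916% and 0.837% of all rows), with a median log2 fold change of 7.49 (7.21 with ULBP3 at its bound) against 0.00 over all rows. With haploid libraries alone neither reached the filter. ULBP27 stood at 9.22, 0.185, 34.2, 2.79 and 32.1 CPM in androgenetic and at 0.0711, 0.0386, 0.292, 0 and 0 CPM in parthenogenetic libraries. Androgenetic 2 overlapped the parthenogenetic range, and the other 4 stood above it. The log2 fold change was 7.49 ± 1.34 (edgeR adjusted p = 0.0189). The test was not passed without parthenogenetic 1 or 5 (edgeR adjusted p = 0.0648 and 0.0580), and without parthenogenetic 3 the value was 8.91.

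ULBP3 had 0 counts in all 5 parthenogenetic libraries. Its androgenetic values were 1.80, 0.0616, 10.3, 0.356 and 0.0542 CPM, of which those of androgenetic 2 and 6 stand for 1 count each. Summed over the groups ULBP3 was at least 148-fold higher in androgenetic libraries, taking 3 counts over the group as the upper limit for a count of 0 (edgeR adjusted p = 0.0354). Of the 322 androgenetic counts 273 came from androgenetic 4, so the 148-fold value rests largely on that library. Significance was lost without parthenogenetic 1, 3 or 5, ICSI 2, 3 or 4, or androgenetic 1 or 5 (edgeR adjusted p between 0.0506 and 0.0942). The fitted log2 fold change, which is no bound, was 9.0, and 6.86 without androgenetic 4. In ICSI libraries ULBP27 stood at 28.2 ± 26.3 and ULBP3 at 10.3 ± 11.8 CPM. Both were above the androgenetic means of 15.7 ± 16.3 and 2.51 ± 4.4 CPM. The third member, RAET1L, had overlapping groups and 1.70 ± 1.47 (edgeR adjusted p = 0.582), with 2.33 and 2.31 without parthenogenetic 1 and 3. Genes of this family have near-identical copies, so their rows are uncertain as single genes.

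SEPT10 encodes a septin, a GTPase that assembles into filaments at the cell cortex and the cleavage furrow. It had 86.5, 42.7, 4.14, 70.0 and 291 CPM in androgenetic and 1.17, 0.386, 0.487, 3.50 and 0.133 CPM in parthenogenetic libraries. The groups did not overlap, although androgenetic 4 came close to parthenogenetic 5. ICSI libraries spanned 1.63 to 103 CPM and bridged the groups. Its log2 fold change was 6.43 ± 1.24 (edgeR adjusted p = 0.0247). The threshold was missed without parthenogenetic 1 or 3 (edgeR adjusted p = 0.0732 and 0.0790). The fold of 86.1 was 178 without parthenogenetic 5 and 48.6 without androgenetic 6. The lncRNA row LOC101904087, 2 genes away in the RefSeq order, had almost the same counts as SEPT10 (5372 and 5361 in androgenetic 6, 693 and 693 in androgenetic 2). Their reads may not be separate, so SEPT10 is uncertain as a single gene. This row was singled out after its values were seen.

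No other septin gene with a symbol passed. Of 9 tested septin genes 1 was called higher and 0 lower (0.916% and 0.837% of all rows), 7 had a negative log2 fold change, and their median was -0.76 against 0.00 over all rows. SEPT7, a core subunit of septin filaments, stood at 245 ± 176 CPM in androgenetic and 689 ± 312 in parthenogenetic libraries (-1.49 ± 0.46, edgeR adjusted p = 0.0905). SEPT2, another widely expressed septin, stood at 11.8 ± 8.82 and 38.7 ± 21.4 CPM (-1.71 ± 0.56, edgeR adjusted p = 0.109). SEPT1 had 1.92 ± 0.54 (edgeR adjusted p = 0.0694). Without androgenetic 6, SEPT7 and SEPT1 passed, at -1.94 and 2.24 (edgeR adjusted p = 0.0290 and 0.0335). SEPT7 passed in limma voom too, and SEPT1 and SEPT2 in DESeq2 (adjusted p = 0.0465, 0.000955 and 0.0373). The sign of the median was the same in all 25 alternative fits, from -1.17 to -0.47.

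EDA2R, a receptor of the tumour necrosis factor receptor superfamily that binds ectodysplasin A2, rose from a level of almost no counts. It had 5.27, 0.554, 4.55, 1.54 and 9.05 CPM in androgenetic libraries. Among parthenogenetic libraries 3 counts were found in library 2 (0.116 CPM) and 0 in the other 4, and ICSI libraries reached 0.234 CPM at most. The ratio of the summed levels was 204, with a 95% exact counting interval of 69.3 to 992, which covers counting error only (edgeR adjusted p = 0.0381). EDA2R was called in 4 of the 13 fits that left out a library and tested it. The call was lost without parthenogenetic 1, 3 or 5, ICSI 2, 3 or 4, or androgenetic 1, 2 or 5 (edgeR adjusted p between 0.0501 and 0.111). The fitted log2 fold change was 7.25, and 9.73 without parthenogenetic 2.

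NXF2, of a family of nuclear RNA export factors, had 3.82, 0, 3.88, 2.32 and 14 CPM in androgenetic libraries. Parthenogenetic libraries 2, 3 and 6 held 1 count each and the other 2 none. Androgenetic 2, at 0, overlapped them. The ratio of summed levels was 225 with a 95% exact counting interval of 76.4 to 1090 (edgeR adjusted p = 0.0420), and the ICSI mean was 1.95 ± 2.12 CPM. The test was not passed without parthenogenetic 1, 2, 3 or 5, ICSI 1, 2, 3 or 4, or androgenetic 1, 5 or 6 (edgeR adjusted p between 0.0547 and 0.118). The fitted log2 fold change was 7.46, and 6.58 without androgenetic 6.

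A further 4 genes rose between 6.89-fold and 9.24-fold. PTPN20, a protein tyrosine phosphatase gene, had 7.33, 21.4, 6.85, 29.0 and 27.7 CPM in androgenetic and 1.35, 2.59, 1.92, 2.25 and 1.87 CPM in parthenogenetic libraries. All androgenetic libraries stood above all parthenogenetic ones (3.21 ± 0.70, edgeR adjusted p = 0.0334). Significance was lost without parthenogenetic 1, 3 or 5 or androgenetic 2 or 5 (edgeR adjusted p between 0.0554 and 0.0999). PTPN20 was at 5.01 ± 4.18 CPM in ICSI libraries.

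NWD2, which encodes a protein with NACHT and WD repeat domains, had 84.5, 77.3, 20, 27.7 and 23.2 CPM in androgenetic libraries. Its parthenogenetic values were 1.78, 3.71, 3.21, 0.938 and 17.1 CPM. Parthenogenetic 6 came near the lowest androgenetic library and the other 4 stood far below. The log2 fold change was 3.12 ± 0.77 (edgeR adjusted p = 0.0443), a fold of 8.71 that was 19.2 without parthenogenetic 6. The threshold was missed without parthenogenetic 1, 2, 3 or 5, ICSI 1, 2, 3 or 4, or androgenetic 1, 2 or 5 (edgeR adjusted p between 0.0609 and 0.122). ICSI libraries, at 1.77 ± 1.15 CPM, lay below both haploid means.

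MARCH1, a membrane-bound ubiquitin ligase known for taking MHC class II molecules off the cell surface, had 39.3, 16.9, 12.6, 33.8 and 13.6 CPM in androgenetic libraries. The parthenogenetic libraries had 0.889, 1.04, 4.74, 1.63 and 5.07 CPM, all lower. Its log2 fold change was 3.12 ± 0.76 (edgeR adjusted p = 0.0438). The call was lost without parthenogenetic 1, 2, 3 or 5, ICSI 2, 3 or 4, or androgenetic 1, 2 or 5 (edgeR adjusted p between 0.0621 and 0.121). An Ensembl row had nearly the same counts as MARCH1 and was counted separately. Among 9 tested genes of this ligase family 1 was called higher and 0 lower (0.916% and 0.837% of all rows). Their median log2 fold change was -0.45, and it turned to 0.05 with haploid libraries alone, 0.23 without parthenogenetic 3 and 0.01 without the library with fewest rows detected in each group.

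LGALS7B, a gene of the galectin family of sugar-binding proteins, had 184, 26.5, 86.0, 122 and 27.4 CPM in androgenetic and 5.08, 7.80, 8.5, 21.4 and 22 CPM in parthenogenetic libraries. The groups did not overlap, but androgenetic 2 and 6 stood just above parthenogenetic 5 and 6. The log2 fold change was 2.79 ± 0.63 (edgeR adjusted p = 0.0354). The test was not passed without parthenogenetic 1, 2, 3 or 5, ICSI 2 or 3, or androgenetic 1 or 5 (edgeR adjusted p between 0.0518 and 0.1). Of 6 tested galectin and glycosylation genes 1 was called higher and 0 lower (0.916% and 0.837% of all rows). Their median of 0.85, against 0.00 over all rows, was 2.22 without parthenogenetic 6. B3GALT1, a galactosyltransferase gene, had 2.92 ± 0.76 (edgeR adjusted p = 0.0554), and OST4, a small subunit of oligosaccharyltransferase, 1.41 ± 0.44 (edgeR adjusted p = 0.0951). B4GALT7, which acts on the linker of proteoglycan chains, had the opposite sign at -5.62 ± 1.71 (edgeR adjusted p = 0.0883). All 3 passed without parthenogenetic 6 (edgeR adjusted p = 0.0298, 0.0152 and 0.0390) and in DESeq2 (adjusted p = 0.000815, 0.0197 and 0.00834). B3GALT1 and OST4 also passed without androgenetic 4 (edgeR adjusted p = 0.0177 and 0.0405), and B3GALT1 without androgenetic 6 (0.0367), while it had 2.12 without androgenetic 5. B4GALT7 had -6.54 without androgenetic 6.

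**Figure D2:**
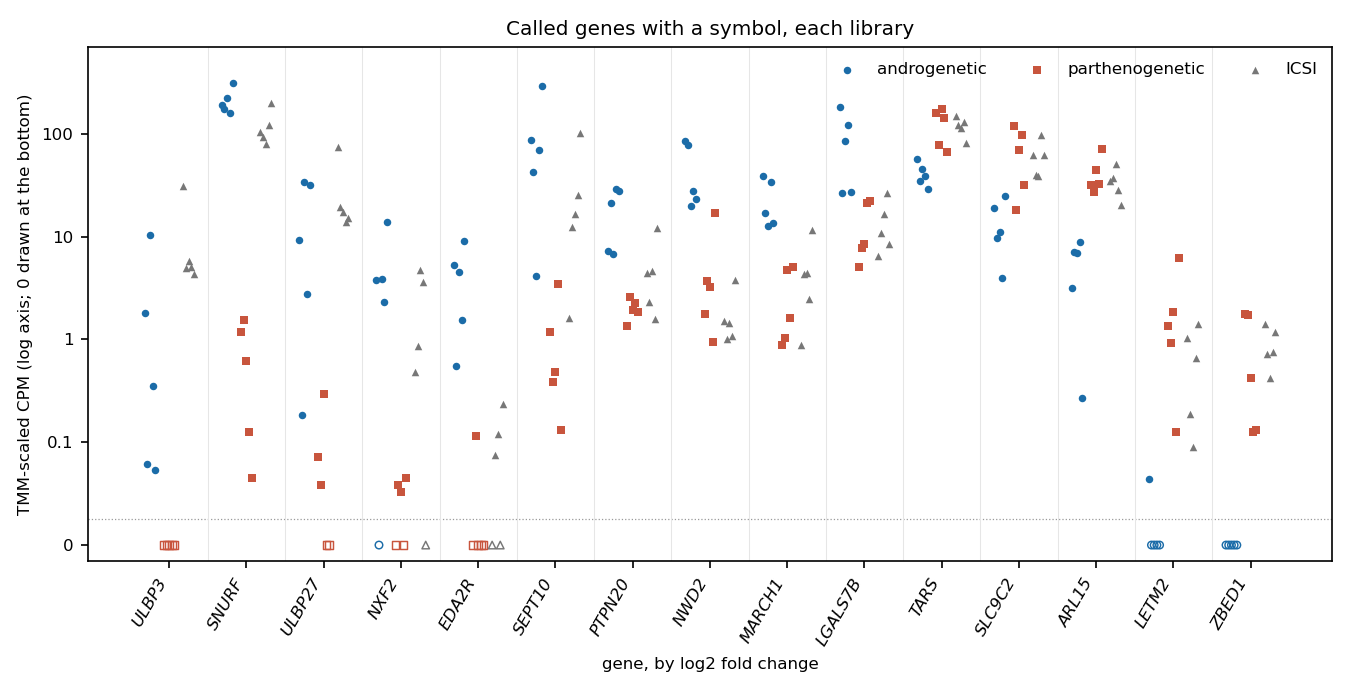
TMM-scaled CPM of the 15 called genes with a symbol in each of the 15 libraries, on a log axis with values of 0 drawn at the bottom as open symbols. The haploid groups of SNURF lie far apart, at 161 to 316 and 0.0445 to 1.54 CPM, whereas ULBP3, ULBP27, NXF2 and SEPT10 spread widely among androgenetic libraries.

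Fewer named genes fell, and in ARL15, SLC9C2, TARS and ZBED1 the ICSI mean was close to the parthenogenetic mean. ARL15, a small GTPase of the ADP-ribosylation factor-like group, had 3.20, 7.08, 6.96, 8.79 and 0.271 CPM in androgenetic libraries. In parthenogenetic libraries it had 31.6, 26.9, 44.9, 32.3 and 71.4 CPM, and in ICSI libraries 20.4 to 51.3. All androgenetic libraries lay below all others (-2.98 ± 0.64, edgeR adjusted p = 0.0330). Significance was lost without parthenogenetic 1, 3 or 5 or androgenetic 1 or 2 (edgeR adjusted p between 0.0576 and 0.0821).

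SLC9C2, of the sodium/proton exchanger family, had 18.9, 9.79, 11.2, 3.92 and 25.0 CPM in androgenetic libraries. It had 120.0, 18.1, 69.6, 96.9 and 31.9 CPM in parthenogenetic ones. Parthenogenetic 2 fell within the androgenetic range, and the ICSI mean of 60.2 ± 23.5 was near the parthenogenetic mean of 67.2 ± 42.7 CPM. Its log2 fold change was -2.28 ± 0.56 (edgeR adjusted p = 0.0438). The threshold was missed without parthenogenetic 1, 3 or 5, ICSI 1, 2, 3 or 4, or androgenetic 1, 2 or 5 (edgeR adjusted p between 0.0588 and 0.129).

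LETM2, related to the mitochondrial inner membrane protein LETM1, had 1 count in androgenetic 1 and 0 in the other 4 androgenetic libraries. It had 1.35, 0.926, 1.85, 0.125 and 6.14 CPM in parthenogenetic libraries. The parthenogenetic level was 189 times the androgenetic one, with a 95% exact counting interval of 33.6 to 7500 (edgeR adjusted p = 0.0330). The call was lost without parthenogenetic 1, 3 or 5, ICSI 4, or androgenetic 1, 2 or 5 (edgeR adjusted p between 0.0520 and 0.0842). The fitted log2 fold change was -7.17, and -6.22 without parthenogenetic 6 and -8.74 without androgenetic 1. ICSI libraries held 0.0897 to 1.40 CPM.

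ZBED1, a BED-type zinc finger gene derived from a transposase, was below 1 CPM in both haploid means and was chosen after its values were seen. It had 0 counts in all 5 androgenetic libraries, and 1.78, 1.74, 0.422, 0.125 and 0.133 CPM in the parthenogenetic ones. It was at least 27.8-fold lower in androgenetic libraries (edgeR adjusted p = 0.0334), and all ICSI libraries held it, at 0.419 to 1.41 CPM. The test was not passed without parthenogenetic 1, 3 or 5, ICSI 1, 2, 3 or 4, or androgenetic 1, 2 or 5 (edgeR adjusted p between 0.0502 and 0.0921).

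TARS, the enzyme that loads threonine onto its tRNA, had 57.5, 34.7, 45.1, 39.1 and 29.2 CPM in androgenetic libraries. It had 159, 77.6, 174, 142 and 66.9 CPM in parthenogenetic and 81.9 to 149 CPM in ICSI libraries. The haploid groups did not overlap (-1.59 ± 0.35, edgeR adjusted p = 0.0334). Significance was lost without parthenogenetic 1, 3 or 5, ICSI 2 or 4, or androgenetic 2 or 5 (edgeR adjusted p between 0.0505 and 0.0992). An Ensembl row had nearly the same counts.

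TARS was the only called member among 18 tested aminoacyl-tRNA synthetases, so that 0 were called higher and 1 lower (0.916% and 0.837% of all rows). Of the 18, 15 had a negative log2 fold change, and the median of -1.05 lay between -1.23 and -0.77 in the 25 alternative fits, against 0.00 over all rows. In EPRS, the glutamyl-prolyl enzyme that anchors to the multi-synthetase complex, androgenetic libraries had 57.7, 37.6, 53.2, 31.1 and 5.69 CPM and parthenogenetic libraries 115, 77.4, 109, 107 and 93.8. Those groups did not overlap, nor did those of the cysteinyl enzyme CARS, at 3.35 ± 1.69 and 9.60 ± 2.0 CPM. With TARS, 3 of the 18 had parthenogenetic libraries above without overlap (2.77% of all rows). EPRS and CARS did not pass over all rows (-1.44 ± 0.44 and -1.52 ± 0.58, edgeR adjusted p = 0.0883 and 0.162), but did in DESeq2 (adjusted p = 0.0330 and 0.0445). Among the others, IARS passed without parthenogenetic 6 (-1.55, edgeR adjusted p = 0.0397) and RARS without androgenetic 6 (-2.23, edgeR adjusted p = 0.0455). The members with positive values were MARS (0.74 ± 0.43), YARS (0.37 ± 0.41) and QARS (0.04 ± 0.47), the methionyl, tyrosyl and glutaminyl enzymes. Androgenetic 6, which had the fewest rows detected, was the lowest of the 10 haploid libraries in AARS, EPRS, HARS, KARS, LARS, QARS, SARS and TARS. It was the highest androgenetic library in CARS, DARS, IARS, MARS and RARS. The part of that library's coverage in these values was not tested.

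Of 13 tested core histone genes 0 were called in either direction (1.75% of all rows), 11 had a positive log2 fold change, and the median was 0.97 (0.65 to 1.42 in the 25 alternative fits). H4C1, a histone H4 gene, stood at 55.4, 60.5, 50.8, 28.0 and 88.2 CPM in androgenetic and 15.9, 20, 25.7, 21.2 and 22.9 CPM in parthenogenetic libraries. The groups did not overlap, and the difference missed the threshold (1.42 ± 0.37, edgeR adjusted p = 0.0577). H4C1 passed without parthenogenetic 6, ICSI 5 or androgenetic 4, at 1.44 to 1.46 (edgeR adjusted p between 0.0488 and 0.05). It also passed with DESeq2 size factors, in DESeq2 and in limma voom (adjusted p = 0.0449, 0.000388 and 0.0469). HIST1H2BA, the H2B variant known from testis and oocytes, was also without overlap, at 0.952 ± 0.364 against 0.0450 ± 0.0710 CPM (4.23 ± 1.30, edgeR adjusted p = 0.0903, and 5.46 without parthenogenetic 3). It passed in DESeq2 and limma voom (adjusted p = 0.00955 and 0.0282). Some histone rows shared their counts and are uncertain as single genes. HIST1H2AK and HIST2H2AA4 had the same means of 1110 CPM in androgenetic libraries. The libraries hold polyadenylated RNA, and most histone messages carry no poly(A) tail.

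**Figure D3:**
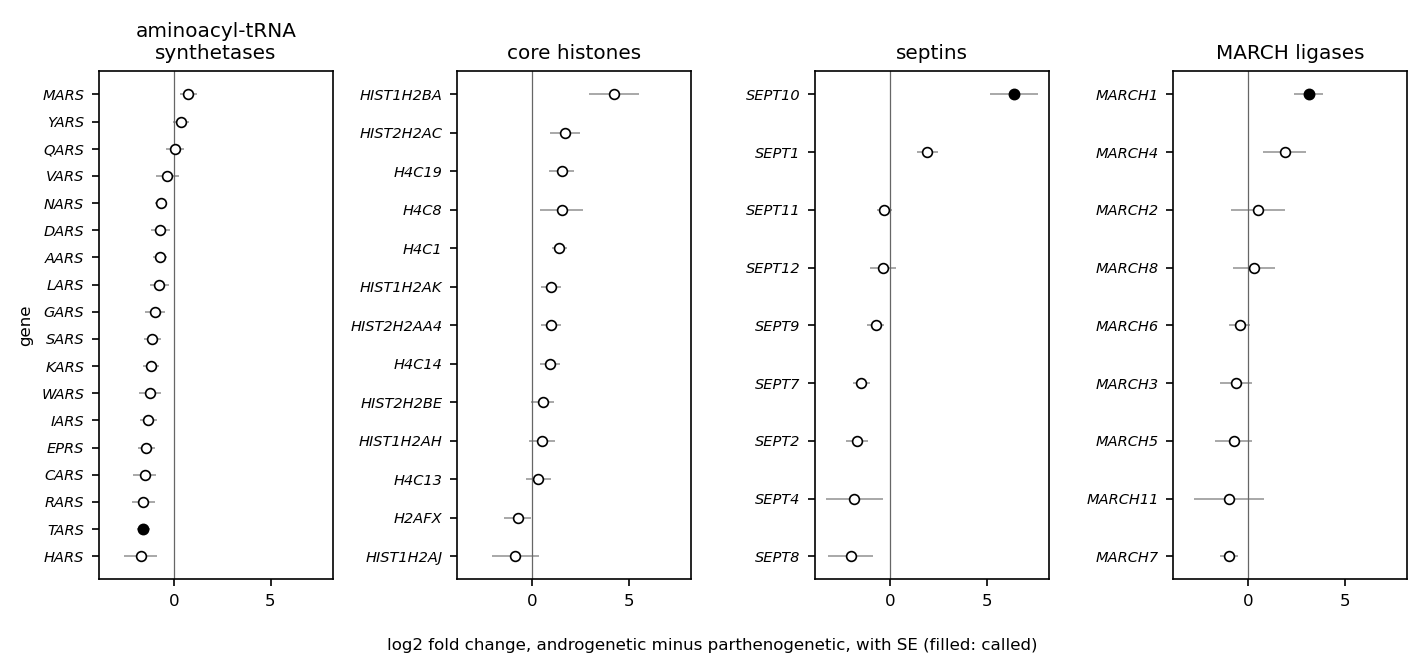
Log2 fold changes, androgenetic minus parthenogenetic, with standard errors for the tested aminoacyl-tRNA synthetases, core histones, septins and MARCH ubiquitin ligases. Filled points (TARS, SEPT10 and MARCH1) passed over all rows. Most synthetases lie left of 0 and most histones right of it.

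Genes of WNT signalling, named in the title of the series, did not pass where they had a symbol. Ensembl rows, with 92.9% of counts, carry no name, so other members could not be looked up. Of 5 members with a row under a symbol 3 were tested and 0 called (1.75% of all rows). Their median of 0.65 turned to -0.91 in limma voom and was 1.51 without parthenogenetic 2. TNIK, a kinase that binds the transcription factor TCF4, stood at 2020, 4560, 1050, 3180 and 1040 CPM in androgenetic and 472, 903, 351, 428 and 1940 CPM in parthenogenetic libraries. Parthenogenetic 6 stood within the androgenetic range and the other 4 below it (1.54 ± 0.55, edgeR adjusted p = 0.136). Without parthenogenetic 6 the difference was 2.13 and passed (edgeR adjusted p = 0.0282), and it passed in DESeq2 as well (1.65, adjusted p = 0.0437). TLE1, a co-repressor of TCF factors, had 24.0 CPM in androgenetic 2 and 0 to 0.891 CPM in the other androgenetic libraries, against 2.82 to 3.73 CPM in parthenogenetic libraries. Its log2 fold change of 0.65 ± 1.21 was thus carried by 1 library and was -3.08 without it (edgeR adjusted p = 0.820 and 0.141). PYGO2, which links beta-catenin to chromatin, had 0 to 3.07 CPM in androgenetic and 0.249 to 1.89 CPM in parthenogenetic libraries (0.58 ± 1.38, edgeR adjusted p = 0.865, -0.55 without androgenetic 1 and 1.51 without parthenogenetic 2).

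The remaining lists had at most 2 tested members under a symbol and 0 calls. The HIPPO pathway targets CYR61 and CTGF had -0.42 ± 0.95 and 0.24 ± 0.47, with overlapping groups (edgeR adjusted p = 0.857 and 0.830). Both had an Ensembl row with nearly the same counts. The pluripotency factor SOX2 was at 0.834, 6.53, 2.26, 2.73 and 0.163 CPM in androgenetic and 2.20, 7.22, 1.40, 5.13 and 8.28 CPM in parthenogenetic libraries, which overlapped (-0.95 ± 0.89, edgeR adjusted p = 0.617, and -1.64 without androgenetic 2).

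The PRD-like homeobox genes ARGFX and DUXA, of a class active around the start of embryonic transcription, had 1.42 ± 0.50 and 4.02 ± 1.09 (edgeR adjusted p = 0.131 and 0.0615). DUXA had 112, 160.0, 472, 86.4 and 6420 CPM in androgenetic libraries, against 35.9 to 187 CPM in parthenogenetic ones. Androgenetic 6 stood far above the other 9 haploid libraries, and without it DUXA had 1.28 (edgeR adjusted p = 0.249). DUXA passed without androgenetic 4 or ICSI 5 (4.24 and 4.04, edgeR adjusted p = 0.0425 and 0.0472), and ARGFX in DESeq2 (1.55, adjusted p = 0.0352). The ribosomal protein gene RPL31 was without overlap, at 802 to 1770 CPM in androgenetic and 351 to 760 in parthenogenetic libraries (1.11 ± 0.33, edgeR adjusted p = 0.0795). C14H8orf59, listed with it for its part in ribosome assembly, had 1.58 ± 0.49 (edgeR adjusted p = 0.0909). Both passed without parthenogenetic 6 (1.24 and 1.97, edgeR adjusted p = 0.0393 and 0.0298) and in DESeq2 (adjusted p = 0.00558 and 0.0175). C14H8orf59 also passed without androgenetic 4 (1.82, edgeR adjusted p = 0.0341), and RPL31 in limma voom (adjusted p = 0.0396).

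CEBPG, a partner of the stress factor ATF4, had 1.44 ± 0.50 (edgeR adjusted p = 0.129) and passed in DESeq2 (1.57, adjusted p = 0.0201). The spindle checkpoint gene MAD2L1 spread from 380 to 6620 CPM in androgenetic and from 1720 to 2180 CPM in parthenogenetic libraries, with 0.31 ± 0.64 (edgeR adjusted p = 0.842, and -0.54 without androgenetic 6). The centrosome gene CNTRL had 0.51 ± 0.77 (edgeR adjusted p = 0.770). In both genes the androgenetic libraries lay on both sides of the parthenogenetic range. The pro-apoptotic gene BIK had 1.86 ± 1.56, and BCL2L10, an oocyte-enriched BCL2 family gene listed under apoptosis and oocyte transcripts, -2.04 ± 1.15 (edgeR adjusted p = 0.571 and 0.357). Without androgenetic 4 they had -0.53 and -3.58, and BIK had 3.70 without parthenogenetic 2. SOHLH1, a germ cell transcription factor gene of the oocyte list, had 0.04 ± 1.56 (edgeR adjusted p = 0.994), with 4.73 without parthenogenetic 2 and -2.89 without androgenetic 4. The lists for trophectoderm, hypoblast, cumulus and granulosa cells, sperm transcripts, Y-linked genes, the mitochondrial genome and imprint protection had 0 rows under a symbol. The morula label was therefore not checked against lineage markers beyond SOX2.

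Some rows were present in a haploid group and nearly absent from the other. With at least 10 counts in every library of a group and at most 1 in every library of the other, 1 row was androgenetic only and 7 were parthenogenetic only. All 8 were unnamed Ensembl rows, as were 27607 of the 31999 rows of the table. All 8 were called (1.75% of all tested rows), but they were chosen on the same counts that the test used. The androgenetic-only row had 95, 57, 237, 160 and 49 counts in androgenetic libraries and 0 in all parthenogenetic ones. It had 22 to 82 counts in the 5 ICSI libraries. The 7 parthenogenetic-only rows had 11 to 204 counts in parthenogenetic libraries, and 6 of the 7 were at 0 in ICSI 5, the ICSI library with fewest rows detected. The numbers moved with single libraries. Androgenetic-only rows numbered 9 without androgenetic 6, 6 without parthenogenetic 2 and 2 to 4 without androgenetic 1, 2, 4 or 5 or parthenogenetic 3. Parthenogenetic-only rows numbered 40 without androgenetic 4, 32 without parthenogenetic 6 and 12 to 15 without androgenetic 1, 2 or 5 or parthenogenetic 1 or 2.

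Among rows without a name, the lowest p belonged to ENSBTAG00000008251, with 172 to 397 CPM in androgenetic and 0.0890 to 1.54 CPM in parthenogenetic libraries (8.46 ± 0.76, edgeR adjusted p = 2.30e-05). Its counts in parthenogenetic libraries were 35, 40, 20, 4 and 2, and those of SNURF 33, 40, 19, 4 and 1. In androgenetic libraries it had 4723, 3291, 8433, 2899 and 7323 counts, and SNURF 4327, 2819, 5943, 2704 and 5830. The rows may share reads, which was not tested, so ENSBTAG00000008251 is uncertain as a gene separate from SNURF. ENSBTAG00000005045 had 76.0, 45.5, 27.2, 29.6 and 49.4 CPM in androgenetic and 0.107, 0.347, 0.649, 0.25 and 0.311 CPM in parthenogenetic libraries (7.07 ± 0.68, edgeR adjusted p = 2.30e-05). Its ICSI libraries, at 2.6 to 8.65 CPM, stood above every parthenogenetic and below every androgenetic library. Of the rows that fell, ENSBTAG00000027879 had 33.6 to 82.1 CPM in androgenetic and 150 to 349 CPM in parthenogenetic libraries (-2.38 ± 0.36, edgeR adjusted p = 0.00720). ENSBTAG00000007893 had 20.6 to 57.6 and 135 to 377 CPM (-2.53 ± 0.39, edgeR adjusted p = 0.00872). None of these 4 rows overlapped between the groups, and all 4 were called in each of the 15 fits that left out a library.

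The ICSI level lay nearer the parthenogenetic than the androgenetic mean in most rows, called or not. It did so on a log scale in 112 of the 150 rows called higher (74.7%) and in 136 of the 137 called lower (99.3%), against 73.4% of the 16088 rows not called. The share among higher rows was thus near that of other rows, while in nearly all lower rows the ICSI level was nearer the parthenogenetic mean. These shares describe the rows: the androgenetic mean of a called row is far out by choice, and the ICSI libraries took part in the fit. With group medians the counts were 117 and 135, and without the library with fewest rows detected in each group 116 and 136. The ICSI mean was below both haploid means in 36 rows called higher and 0 called lower, and above both in 10 and 44.

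LOC rows listed as long non-coding RNA took a larger share of the counts in androgenetic than in parthenogenetic libraries, as did other classes below. Non-coding RNAs among the Ensembl rows could not be classed. The 1486 LOC rows that RefSeq lists as lncRNA held 1.59%, 1.61%, 1.63%, 1.64% and 1.63% of counts in androgenetic and 1.36%, 1.35%, 1.40%, 1.26% and 1.35% in parthenogenetic libraries. The groups did not overlap, and ICSI libraries held 1.35% to 1.48%. The difference of means was 0.275 points (exact two-sided permutation p = 0.00794, the smallest that 5 against 5 allows). This measure was chosen after values were seen. Adjusted over 8 measures, the 5 classes of rows below and the 3 library measures above, the exact p was 0.0317. When each haploid library was left out the difference was 0.254 to 0.288 points. Without the 20 highest lncRNA rows it was 0.142, and without those called 0.226, and the groups did not overlap in either case (exact p = 0.00794 for each).

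The other classes of rows not named by Ensembl had larger shares in androgenetic libraries as well, and shares of a total move together. LOC rows not found in RefSeq held 0.874% to 1.15% and 0.745% to 0.778% of counts (exact permutation p = 0.00794, adjusted 0.0317). Protein-coding LOC rows held 1.55% to 3.32% and 1.08% to 2.66% (exact permutation p = 0.0238, adjusted 0.0476), with parthenogenetic 6 alone above 1.16% in its group. Protein-coding rows with a symbol held 2.36% to 3.25% and 2.11% to 2.6%, which did not pass (exact permutation p = 0.0556, adjusted 0.0889). Ensembl rows made up the rest, at 90.5% to 92.6% and 92.2% to 94.2% (exact permutation p = 0.0159, adjusted 0.0423). Fewer rows were detected and the 20 highest rows took more counts on average in androgenetic libraries, as given above, and the part of either in these shares was not tested.

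Row by row, 19 of 815 tested lncRNA rows were called higher and 1 lower. That is 2.45% called in either direction, against 1.75% of all rows. The share was 2.46% of protein-coding LOC rows (10 higher, 1 lower), 3.20% of protein-coding rows with a symbol (10 and 5), 1.43% of LOC rows not in RefSeq (8 and 2) and 1.66% of Ensembl rows (102 and 127). Of the lncRNA rows 536 had a positive log2 fold change, and the median was 0.66 against 0.00 over all rows. The medians were 0.36 over 447 protein-coding LOC rows, 0.28 over 469 protein-coding rows with a symbol, 0.29 over 698 LOC rows not in RefSeq and -0.07 over 13802 Ensembl rows. The lncRNA median stayed positive in the 25 alternative fits, from 0.12 in limma voom, where that of all rows was -0.45, to 0.90 without the library with fewest rows detected in each group. The number called higher was less stable: 0 without parthenogenetic 1 or 3 or with haploid libraries alone, 1 without parthenogenetic 5 and 50 without parthenogenetic 6. It was 3 without androgenetic 1 or 5, 4 without androgenetic 2 or ICSI 4, 7 without ICSI 2 or 3, 8 without ICSI 1, 32 without ICSI 5 and 36 without androgenetic 4. It was 12 without a filter, 7 with rows detected as a covariate, 43 in limma voom, 96 without the library with fewest rows detected in each group and 106 in DESeq2.

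**Figure D4:**
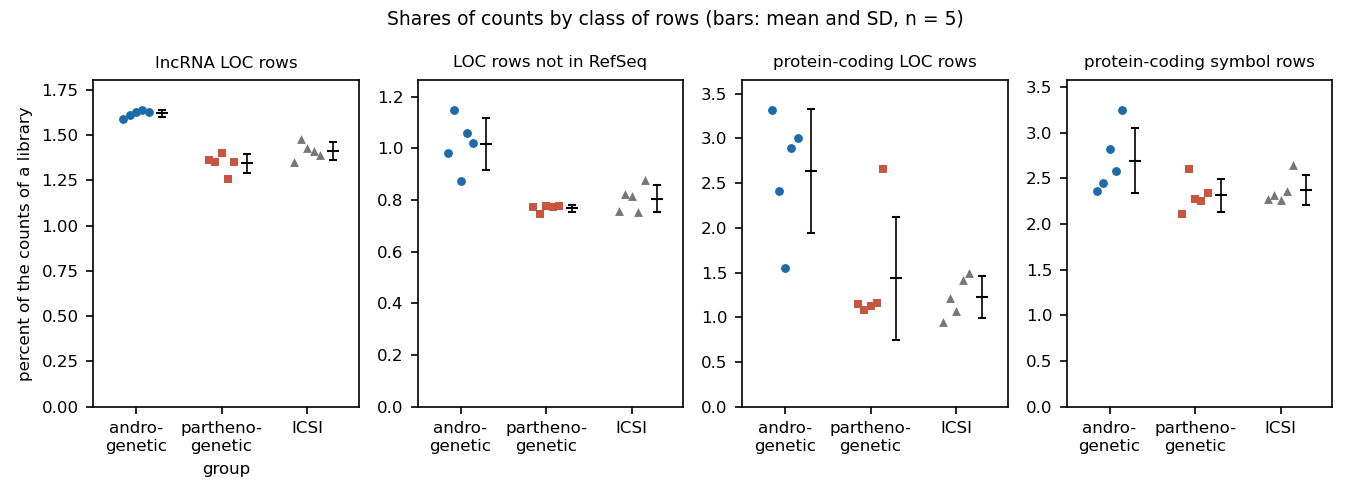
Percent of the counts of each library held by 4 classes of rows in androgenetic, parthenogenetic and ICSI libraries, with the mean and SD of 5 libraries beside the points. The lncRNA share is 1.59% to 1.64% in androgenetic and 1.26% to 1.40% in parthenogenetic libraries, and only the protein-coding classes overlap between the haploid groups.

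The number of calls depended on which libraries were used. Leaving out each of the 15 libraries in turn gave 14 to 903 calls, while 2558 to 3971 rows had an unadjusted edgeR p below 0.05. Without parthenogenetic 1 the 14 rows had all been called before and SNURF was the only gene with a symbol among them. Without parthenogenetic 3 there were 20 calls, SNURF and ULBP27 among them, and without parthenogenetic 5 there were 26, SEPT10 and SNURF among them. Without parthenogenetic 6 there were 903, which held 285 of the 287 rows and all 15 genes with a symbol. Without androgenetic 4 and 6 there were 738 and 375, and without androgenetic 1, 2 and 5 there were 87, 105 and 99. Without ICSI 1 to 5 in turn there were 167, 137, 150, 104 and 440. In all 15 fits 13 rows were called, 6 higher and 7 lower.

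Other settings ended the calls of some genes with a symbol. With haploid libraries alone SNURF and SEPT10 passed, the other 8 that were tested did not (edgeR adjusted p between 0.0576 and 0.142), and ULBP3, ULBP27, NXF2, LETM2 and ZBED1 did not reach the filter. Rows detected as a covariate ended the calls of EDA2R, MARCH1, NXF2, PTPN20, SLC9C2 and TARS (edgeR adjusted p between 0.0554 and 0.0747). LETM2, MARCH1, NWD2, SLC9C2, TARS and ZBED1 did not pass without a filter on low counts (edgeR adjusted p between 0.0512 and 0.0626). In limma voom NXF2, SEPT10, SLC9C2 and ULBP3 did not pass (adjusted p between 0.0529 and 0.0626), and DESeq2 gave ULBP3 no adjusted p. SLC9C2 also did not pass with DESeq2 size factors (edgeR adjusted p = 0.0538). With the replicate number as a block, only SNURF and SEPT10 of these genes stayed called.

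**Figure D5:**
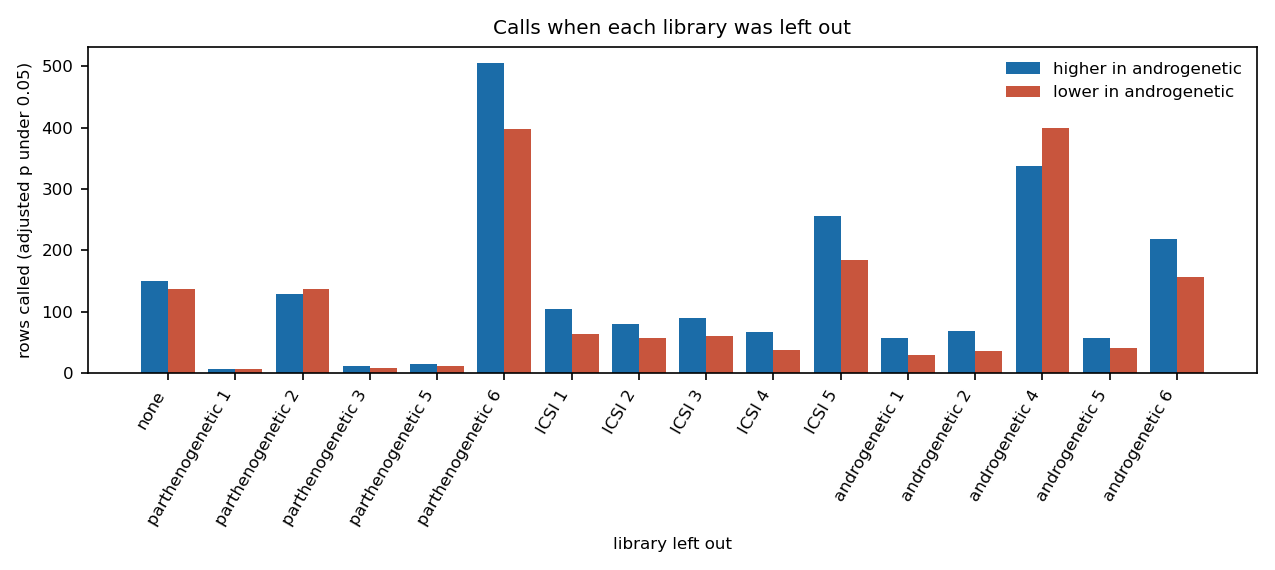
Rows called higher (blue) and lower (red) in androgenetic libraries when each library was left out of the fit, with the result of all 15 libraries at the left. Calls fell to 14, 20 and 26 without parthenogenetic 1, 3 and 5 and rose to 903 without parthenogenetic 6.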

How the data were processed

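RNA-seq libraries of bovine morulae were used as deposited: a table of raw counts per gene and library, which the authors had not normalized. Libraries of polyadenylated RNA were built with SMART-Seq HT and NexteraXT kits, per the labels' protocols. The submitters' processing notes name Trim Galore, cutadapt, STAR and featureCounts. Versions, genome build, annotation and strand setting are not given in the sources used here, so overlapping, antisense and near-identical genes cannot be told apart. Groups and replicate numbers came from the titles and labels. Of 4392 rows without an Ensembl identifier, 3006 matched the RefSeq table of assembly ARS-UCD2.0, which gave 80 LOC rows a symbol and served for names, gene classes and gene order. The files do not pair Ensembl identifiers, which held 92.9% of counts, with names.

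Counts were tested in R 4.3.3 with edgeR 4.0.16: default filter by group, TMM factors, a quasi-likelihood model with a term for each group of the 15 libraries, the contrast androgenetic minus parthenogenetic, and Benjamini-Hochberg adjustment over 16375 rows. The standard error is the log2 fold change over the square root of F, and the common biological coefficient of variation was 1.02. The fit was tested on simulated data in which the changes were set. For library measures, exact permutation tests (two-sided, 252 arrangements) were used. Intervals are exact binomial at 95% and, like the limit of 3 counts for a count of 0, cover counting error only. Alternatives were DESeq2 size factors, upper-quartile factors, other filters, DESeq2 1.42.0, limma 3.58.1 voom, haploid libraries alone, the replicate number as a block, rows detected as a covariate, and leaving out libraries.

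Genes were named by rule: called rows with a symbol and at least 1 CPM in a haploid mean (the 15 largest rises and falls at most), called list members, a set of imprinted, lineage, WNT and HIPPO genes whatever their result, and the 2 rows without a symbol of lowest p in each direction. A planned rule on rows that follow SNURF over the haploid libraries was not used. SNURF levels lay far apart in the haploid groups. The members, the rule and the 25 lists were chosen with earlier results of these data known, so a list's direction is not independent evidence.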

Additional observations from a re-analysis of the deposited data

Results flagged for a closer look

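In 62 groups of 5 values tested for a library far from the rest of its group, 7 stood out. Chance flags about 1 in 20 groups, a rate that need not hold where all other values are 0, as for EDA2R, LETM2 and MEG8. The EDA2R level of 0.116 CPM in parthenogenetic 2 and the LETM2 level of 0.0439 CPM in androgenetic 1 are the only nonzero values of their groups, 3 counts and 1 count. MEG8 stood at 2.93 CPM in androgenetic 4 and at 0 in the other androgenetic libraries. PYGO2 stood at 1.89 CPM in parthenogenetic 2, against 0.249 to 0.438 CPM in the rest of its group. CYR61 was at 0 CPM in androgenetic 6, against 1.99 to 5.57 CPM in the others. Parthenogenetic 6 had the fewest rows detected in its group (16154) and the largest share of counts in the 20 highest rows (17.2%), and calls rose without it.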

How the results depend on the processing

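Scaling changed little: upper-quartile factors gave 142 higher and 114 lower rows, and DESeq2 size factors, which moved the median of all rows from 0.00 to 0.12 (-0.45 in limma voom, -0.35 with the replicate block), gave 167 and 102. Without a filter there were 137 and 62. Other tools called more, 990 and 688 in DESeq2 and 356 and 347 in limma voom. Haploid libraries alone gave 22 and 5, rows detected as a covariate 98 and 56, and leaving out the library with fewest rows detected in each group 1071 and 803. Leaving out each library gave 7 to 506 higher and 7 to 400 lower rows, 316 to 638 rows with androgenetic and 499 to 1033 with parthenogenetic libraries above without overlap, 1 to 9 androgenetic-only and 8 to 40 parthenogenetic-only rows. The median SD was 1.26 to 1.63 in androgenetic and 0.716 to 1.03 in parthenogenetic libraries, and the difference in the share of the 20 highest rows 2.94 to 4.77 points. With at least 20 and at most 5 counts, 2 and 13 rows were on in a single group. The cause of these changes was not tested.

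No pairing of the haploid libraries by replicate number was seen: the correlations of deviations over 4 shared numbers were between -0.041 and 0.03. Of these libraries 0 correlated best with their own number. The labels do not say what the numbers stand for, so a batch shared by number was not tested. With the replicate block 44 rows were higher and 44 lower, and TLE1 turned to -2.22. Of the 15 called genes with a symbol SNURF and SEPT10 passed there, and the other 13 had edgeR adjusted p between 0.0560 and 0.106. The median of the paternally expressed list was 0.03, and 6 lncRNA rows were higher.

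Signs turned in these genes, none of which passed with all libraries. USP29 had 0.00 with DESeq2 size factors and in DESeq2, 0.01 with haploid libraries alone, 0.88 without the libraries with fewest rows, and -0.68 to 0.45 when libraries were left out in turn. In limma voom MKRN3 had -1.37, PYGO2 -0.91 and TLE1 -2.74. Leaving out each library gave -0.55 to 1.51 for PYGO2 and -3.08 to 1.12 for TLE1. CYR61 and CTGF had 0.02 and -0.03 without the libraries with fewest rows, and -0.74 to 0.01 and -0.13 to 0.50 when each was left out. A common coefficient of variation of 1.02 limits the size of change that 5 libraries a group can show.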

Other observations

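Called rows that RefSeq places close together were looked for after values were seen. Of the called rows, 44 could be placed in the RefSeq gene order. Within 5 genes of them lay 48 rows of the table, 35 of them tested and 6 called, as 3 pairs in which each row is the other's neighbour. Of all tested rows 1.75% were called. In the first pair, the lncRNA row LOC100848941 stands 2 genes from SNURF. It had 24.5, 28.1, 15.2, 1.19 and 19.2 CPM in androgenetic and 0, 1.04, 1.01, 0 and 0 CPM in parthenogenetic libraries, so that all androgenetic libraries were higher. It had 12.7 ± 3.84 CPM in ICSI libraries (log2 fold change 5.41 ± 1.27 SE, edgeR adjusted p = 0.0392). Its call was lost without parthenogenetic 1, 3 or 5, ICSI 1, 2, 3 or 4, or androgenetic 1 or 2 (edgeR adjusted p between 0.0561 and 0.0978), and without parthenogenetic 2 or 3 it had 6.08 and 6.05. SEPT10 and LOC101904087 form the next pair, whose counts were nearly equal. The last pair is LOC783362 and LOC786942, both protein-coding in RefSeq and 5 genes apart. LOC783362 stood at 2930, 408, 396, 1070 and 1150 CPM in androgenetic and 23.9, 18.5, 24.1, 12.3 and 69.6 CPM in parthenogenetic libraries (5.33 ± 0.91, edgeR adjusted p = 0.0156). Without parthenogenetic 1 or 3 it did not pass (edgeR adjusted p = 0.0633 and 0.0544), and without androgenetic 1 it had 4.66. Its ICSI mean was 149 ± 155 CPM. LOC786942 had means of 411 and 17.8 CPM in the haploid groups (4.53 ± 0.92, edgeR adjusted p = 0.0266), and did not pass without parthenogenetic 1, 3 or 5 or androgenetic 1 (edgeR adjusted p between 0.0526 and 0.0881). It had 5.44 without parthenogenetic 6.

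Near USP29, which did not pass, stand the zinc finger gene ZIM3 (1.81 ± 0.60, edgeR adjusted p = 0.111), DUXA and the lncRNA row LOC789803 (2.44 ± 0.87, edgeR adjusted p = 0.135). None of them passed in edgeR with all libraries, and ZIM3 and LOC789803 passed in DESeq2 (adjusted p = 0.0198 and 0.0125). Of the lncRNA rows, LOC101904529 held the most counts over the haploid libraries, at 0.184% to 0.267% of a library in androgenetic and 0.0338% to 0.126% in parthenogenetic ones. The rows next in counts did not share that rise. LOC112449254 held 0.0155% to 0.0733% and 0.0384% to 0.156%, and LOC112446708 0.0151% to 0.039% and 0.0342% to 0.107%. LOC101905239 held 0.0134% to 0.0781% and 0.051% to 0.0852%, and LOC104972118 0.0444% to 0.0874% and 0.0287% to 0.141%.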
